A study of Rattus norvegicus with 11 samples.

Results

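The interleukin-1 system of rat peripheral white blood cells (WBCs) was followed through 10 genes out of the 32623 in the deposited table. The genes were taken by symbol, and each symbol stood on a single gene: the ligands Il1a, Il1b and Il18, the receptor antagonist Il1rn, the receptors Il1r1, Il1r2 and Il1rap, the IL-18 trap Il18bp, and the inflammasome genes Casp1 and Nlrp3. The study asked what changes in WBCs as the expression of Nampt, the rate-limiting enzyme of NAD salvage, goes up and down in early collagen-induced arthritis (CIA), and it used Il-1β as an inflammatory indicator in its PCR monitoring. All animals were male Wistar rats, 7 weeks old when supplied and kept free of specific pathogens. The arthritic rats were injected with bovine type II collagen in incomplete Freund's adjuvant and boosted on day 7. The same 4 rats gave blood near day 8, when they were assigned Nampt++ status, and near day 14, when they were assigned Nampt+ status, each within about 2 days. The other group was of 3 healthy rats without CIA (controls). Status was assigned by the authors from their own PCR of Nampt in the same blood, so the status and the time after injection cannot be told apart.

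IL-1α and IL-1β are the founding cytokines of this family. Both bind the receptor Il1r1, which needs the accessory chain Il1rap to signal and then drives NF-κB and its inflammatory target genes, while Il1rn occupies the receptor without signalling and Il1r2 binds ligand as a decoy. IL-1β and IL-18 are made as inactive precursors that caspase-1 (Casp1) cuts once an inflammasome such as that of Nlrp3 has assembled, so transcript levels do not give the amount of active cytokine. In blood, neutrophils and monocytes are the main sources of Il1b, Il1rn and Il1r2, and IL-1 is a recognised driver of joint damage in arthritis models.

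Il1b and Il18 both encode precursors that caspase-1 cuts, yet their levels in these cells lay far apart. The sequences before their starts are shown for both, and a link between these letters and the levels was not tested. Of the 10 genes, 9 had an entry among the RefSeq promoters of the GRCr8 assembly. The 250 bases upstream of the annotated start are printed 5′ to 3′ on the strand of the gene, for Il1b chr3:137036582-137036831 on the minus strand and for Il18 chr8:59801822-59802071 on the plus strand. Capitals mark matches, on either strand, to the TATA box letters TATAAA, to TTGNNNAA (letters like a C/EBP site) or to an NF-κB-like pattern of 3 guanines followed, after any 5 bases, by 2 cytosines. The letters GAGGAA, like a PU.1 site, were also searched and stood in neither sequence.
Il1b: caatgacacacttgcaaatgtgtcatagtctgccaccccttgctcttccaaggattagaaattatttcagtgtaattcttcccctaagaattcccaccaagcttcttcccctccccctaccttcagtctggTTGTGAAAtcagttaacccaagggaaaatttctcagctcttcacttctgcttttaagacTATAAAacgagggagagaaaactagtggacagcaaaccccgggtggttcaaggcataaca
Il18: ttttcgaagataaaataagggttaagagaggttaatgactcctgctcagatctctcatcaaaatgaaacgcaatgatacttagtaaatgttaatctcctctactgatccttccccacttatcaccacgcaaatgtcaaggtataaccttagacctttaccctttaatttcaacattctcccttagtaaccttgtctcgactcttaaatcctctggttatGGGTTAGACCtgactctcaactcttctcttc
The Il1b sequence held TATAAA at 60 bases and TTGTGAAA at 119 bases before the start, and the Il18 sequence held GGGTTAGACC at 31 bases before it. TATAAA stood upstream of 3 of the 9 genes and in 12.93% of all 33469 promoters of this length, where Il1rap, which had more than 1 annotated start, was counted once if any of its sequences held the letters, while the share over all was taken per promoter. The C/EBP-like letters stood upstream of 5 of the 9 genes against 33.82% of all promoters, the NF-κB-like pattern in 6 of the 9 against 42.32%, and the PU.1-like pattern in 3 of the 9 against 23.34%, where the C/EBP-like and PU.1-like letters can overlap. A match is a run of letters and not a known binding site.

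Total counts per sample lay between 65340027 and 85819418. The 10 haemoglobin genes took 6.43% to 39.8% of them, so the reads left to the other genes differed between samples. The deposited extraction protocol speaks of retinas, whereas the labels name leukocytes. The retina genes Pde6b, Gnat1 and Rcvrn reached at most 0.0508 FPKM, while T cell markers summed to 318 FPKM or more and neutrophil markers to 2087 FPKM or more in every sample. Nampt itself did not separate the statuses in these libraries, with 10.1 to 46.5 FPKM (median 33.4) at Nampt++ status, 11.4 to 36.9 FPKM (median 20.9) at Nampt+ status and 13.5 to 32.9 FPKM (median 20.3) in controls (Nampt+ minus Nampt++ on the log2(FPKM + 1) scale -0.40, exact permutation test, p = 0.571). Each library came from its own blood sample, and the replicates of a group were different rats. Between the statuses, however, the same rats stood in both groups. The main edgeR fit and the exact permutation tests of groups did not use this pairing and treated all samples as separate animals. Where a test was made within rats or with the rat as a block, this is stated.

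The interleukin-1 genes covered a wide range of levels. FPKM, the fragments on a gene scaled by its length and by the size of the library, allows genes to be compared per length, and the mean over the 11 samples was 2437 for Il1b, 640 for Il1r2, 424 for Il1rn, 62.8 for Nlrp3, 28.8 for Casp1, 10.3 for Il18bp, 6.48 for Il1rap, 5.57 for Il1a, 3.44 for Il18 and 3.11 for Il1r1. Il1b was the highest of them in 11 of 11 samples, and by its FPKM it ranked between place 11 and place 151 among all genes. Il1b, Il1r2 and Il1rn were the top 3 in 11 of 11 samples. Il1r2 lay above Il1rn in 9 of 11 samples, Nlrp3 above Casp1 in 11, Casp1 above Il18bp in 11 and Il18bp above Il1rap in 10. The order at the lower end was not stable, since Il1rap lay above Il1a in only 4 of 11 samples and Il18 above Il1r1 in 8. The signalling receptor Il1r1 was thus among the lowest and the decoy Il1r2 among the highest of the set.

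**Figure D1:**
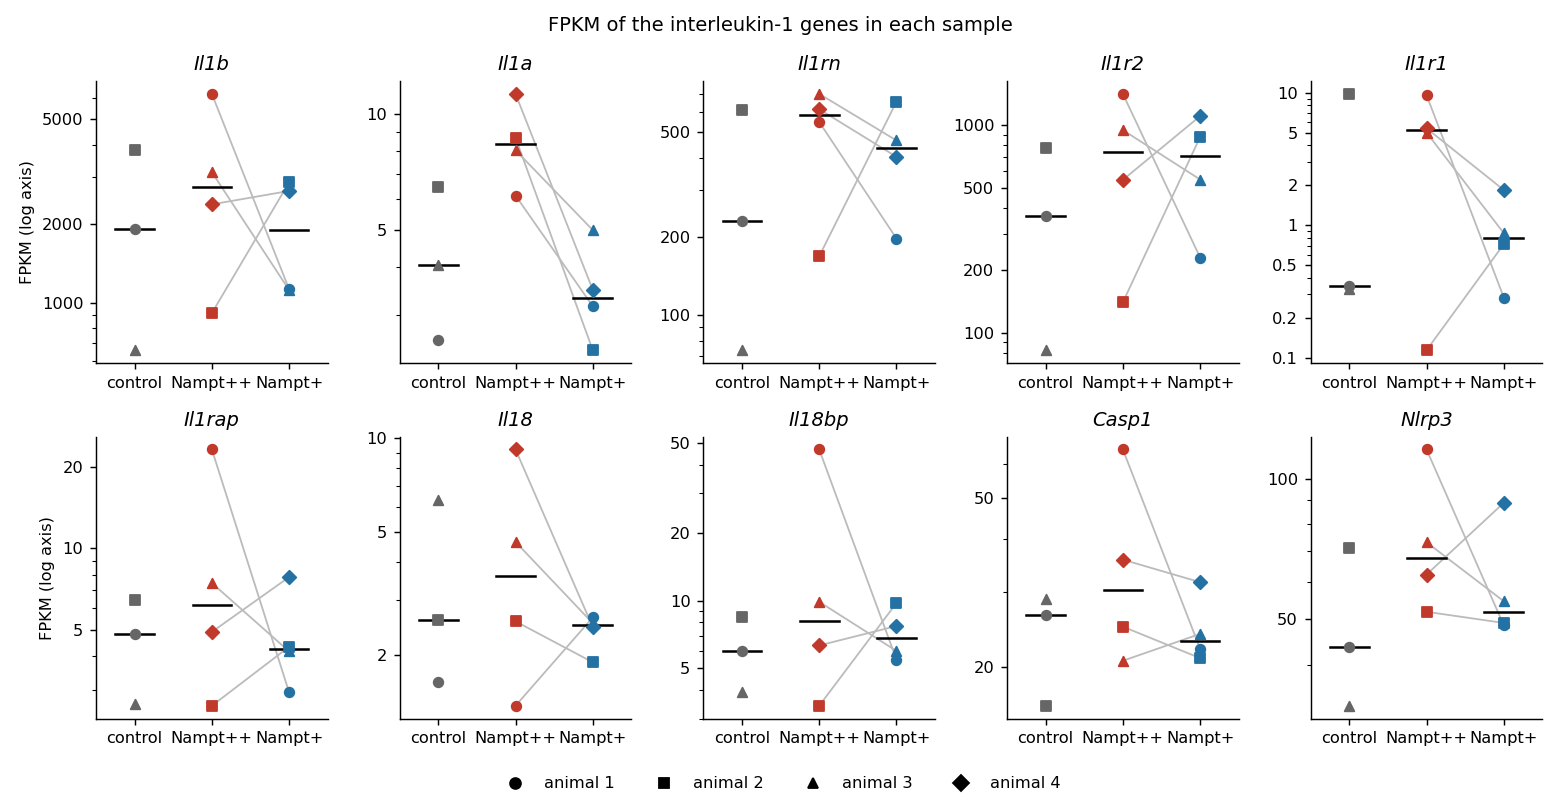
FPKM (log axis, its range set for each gene) of the 10 genes in control, Nampt++ and Nampt+ samples, with 1 point per sample, bars at the group medians and grey lines joining the samples of 1 CIA rat (controls with the same symbol are other animals). The 4 Il1a lines all go down and the Nampt+ points lie under 5, below all 4 Nampt++ points, whereas for Il1b, Il1r2, Il1rap and Il18bp some lines go up and others down.

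Between the statuses, Il1a and Il1r1 were the genes of this set that passed the study's thresholds, both being lower at Nampt+ status. The thresholds ask that the mean FPKM of a group be more than 2 times or less than 0.5 times that of the other, with p under 0.05 before adjustment, and p was taken here from a quasi-likelihood fit in edgeR. All 10 genes had the mean FPKM of at least 1 that was needed for testing, and 2 of 10 were called, against a background of 72 of 11219 genes, or 0.642% (0.330% lower at Nampt+ status). The count is small and the 10 genes were chosen with earlier results of these data known. No gene in the table had an adjusted p under 0.05 with this edgeR test and Benjamini-Hochberg adjustment, where 256 had an unadjusted p under 0.05 (2.28%), and DESeq2 gave 5 genes with an adjusted p under 0.05.

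Il1a, the cytokine that needs no cleavage by caspase-1 to act and that serves as an alarm signal of damaged cells, gave the clearest difference. Its gene lies on the minus strand at chr3:121825412-121836086, next to Il1b at chr3:121876263-121882726 on the same strand, in the deposited coordinates, whose assembly is not named. Its FPKM was 6.14, 8.69, 8.06 and 11.3 in rats 1 to 4 at Nampt++ status, 3.15, 2.42, 4.99 and 3.48 in the same rats at Nampt+ status, and 2.57, 6.46 and 4.04 in controls. Every Nampt++ value lay above every Nampt+ value, and the controls reached into both ranges. The mean was 8.55 ± 2.14 FPKM (SD, n = 4) at Nampt++ status and 3.51 ± 1.08 FPKM (SD, n = 4) at Nampt+ status. Il1a fell, with a fitted log2 fold change of -1.22 (SE 0.24), an unadjusted p of 0.0007278 and an adjusted p of 0.9996 by the edgeR quasi-likelihood test (Benjamini-Hochberg).

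The exact permutation test of log2(FPKM + 1) gave a difference in Il1a of -1.08 and p = 0.0286, the smallest that 4 samples against 4 allow. Groups did not overlap in this gene alone of the 10, and among all tested genes they did not overlap in 0.410%, or in 0.321% with the Nampt+ group lower. Within rats 1 to 4 the ratio of Nampt+ to Nampt++ FPKM of Il1a was 0.514, 0.279, 0.619 and 0.308. It was thus lower at the later time in 4 of 4 rats, as were 4.94% of all tested genes, and the exact sign-flip permutation test gave p = 0.125, the smallest that 4 pairs allow. In bulk WBCs, fewer cells that express a gene and less RNA per cell cannot be told apart. Il1a passed the thresholds in each of the 8 fits that left out 1 sample, with log2 fold changes between -1.37 and -1.13, and in each of the 9 other alternatives, among them -1.24 without the haemoglobin genes and -1.21 with the rat as a block. Its adjusted p ranged from 0.0169 with DESeq2 to 1 over these alternatives. The values rest on 229 to 993 reads per sample, and they lie near or below the level of 10 FPKM under which the study regarded differences as unreliable.

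Il1r1, the receptor that transmits the IL-1 signal, was called on much less even values. Its gene lies at chr9:46962288-47036670 beside that of the decoy Il1r2 at chr9:46840992-46881264, both on the plus strand. Its FPKM was 9.59, 0.114, 5.00 and 5.38 in rats 1 to 4 at Nampt++ status, 0.284, 0.719, 0.870 and 1.84 at Nampt+ status, and 0.348, 9.79 and 0.329 in controls. Rats 1, 3 and 4 were high at Nampt++ status and low afterwards, whereas rat 2 had the lowest value of all samples at Nampt++ status, so the groups overlapped. Control 2 alone of the controls stood at the level of the high Nampt++ samples. Il1r1 was called lower at Nampt+ status, with a fitted log2 fold change of -2.28 (SE 0.97), an unadjusted p of 0.0434 and an adjusted p of 0.9996 by the edgeR quasi-likelihood test (Benjamini-Hochberg).

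The exact permutation test of log2(FPKM + 1) gave p = 0.143 for Il1r1. The ratio of Nampt+ to Nampt++ FPKM was 0.0297, 6.32, 0.174 and 0.342 in rats 1 to 4. With the rat as a replicate block in edgeR the log2 fold change of Il1r1 was -1.92 (SE 1.46) and the call was lost, so that 1 of the 10 genes was then called. The call held when Nampt++ replicate 2 or Nampt+ replicate 4 was left out, at -2.69 and -2.67, and was lost when any of the other 6 samples was left out, at -1.78 without Nampt++ replicate 1, -2.27 without Nampt++ replicate 3, -2.33 without Nampt++ replicate 4, and -1.97, -2.43 and -2.20 without Nampt+ replicates 1, 2 and 3. Counts of Il1r1 ran from 38 to 3441 reads. All its FPKM values, at most 9.79, lie below the 10 FPKM under which the study regarded differences as unreliable.

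The remaining 8 genes did not pass the thresholds between the statuses. Il1b, the main secreted IL-1 of blood leukocytes, had an FPKM of 6238, 912, 3140 and 2366 in rats 1 to 4 at Nampt++ status, 1124, 2871, 1115 and 2662 at Nampt+ status, and 1906, 3810 and 658 in controls. Rats 1 and 3 were lower and rats 2 and 4 higher at the later time, and the 3 groups overlapped over nearly their whole range. The mean of Il1b was 3164 ± 2248 FPKM (SD, n = 4) at Nampt++ status and 1943 ± 955 FPKM (SD, n = 4) at Nampt+ status. The log2 fold change of Il1b was -0.38 (SE 0.65), which is smaller than its error, and without Nampt++ replicate 1 it turned to 0.14. Between 78178 and 679236 reads fell on Il1b per sample, so the spread lies between rats and samples rather than in counting.

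Il1rn, the antagonist that competes with both ligands for Il1r1, had an FPKM of 548, 168, 702 and 614 in rats 1 to 4 at Nampt++ status, 197, 655, 466 and 403 at Nampt+ status, and 230, 612 and 73.5 in controls. It was lower at the later time in rats 1, 3 and 4 and higher in rat 2. The fitted log2 fold change was 0.08 (SE 0.58), although the difference in mean log2(FPKM + 1) was -0.18, so no direction can be given. Il1r2, the decoy receptor, had an FPKM of 1416, 140, 948 and 546 in rats 1 to 4 at Nampt++ status, 231, 878, 548 and 1107 at Nampt+ status, and 366, 781 and 82.6 in controls. Rats 1 and 3 were lower and rats 2 and 4 higher at the later time, as for Il1b. The fitted log2 fold change of Il1r2 was 0.12 (SE 0.71), and it turned below 0 when replicate 2 or 4 of either status was left out.

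Il1rap, the accessory chain shared by the receptors for IL-1 and IL-33, had an FPKM of 23.1, 2.63, 7.45 and 4.92 in rats 1 to 4 at Nampt++ status, 2.94, 4.33, 4.16 and 7.83 at Nampt+ status, and 4.82, 6.42 and 2.67 in controls. The sample of rat 1 at Nampt++ status stood far above the other 10. The log2 fold change of Il1rap between the statuses was -0.82 (SE 0.61), and without that sample it was 0.045. Il1rap values thus overlapped between all groups.

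Il18, the IFN-γ-inducing cytokine, had an FPKM of 1.37, 2.57, 4.63 and 9.22 in rats 1 to 4 at Nampt++ status, 2.64, 1.89, 2.53 and 2.46 at Nampt+ status, and 1.64, 2.59 and 6.35 in controls. The Nampt+ values lay close together, inside the wide range of the Nampt++ values. The log2 fold change of Il18 was -0.75 (SE 0.49), and it passed the thresholds only when Nampt++ replicate 1, which had the lowest value, was left out (-1.05). Without Nampt++ replicate 4, which had the highest value, the log2 fold change of Il18 was -0.27. Il18 rests on 108 to 637 reads per sample and overlaps Bco2 (34 to 208 reads) and Tex12 (0 to 56 reads) on the opposite strand, and whether counting used the strand is not given in the sources used here.

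Il18bp, the secreted trap of IL-18, had an FPKM of 46.8, 3.42, 9.88 and 6.33 in rats 1 to 4 at Nampt++ status, 5.48, 9.76, 5.98 and 7.71 at Nampt+ status, and 5.998, 8.43 and 3.92 in controls. Apart from the sample of rat 1 at Nampt++ status the groups covered the same range. The log2 fold change was -0.89 (SE 0.77), and without that sample it was 0.37.

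Casp1, the protease of the inflammasome, had an FPKM of 64.9, 24.9, 20.7 and 35.8 in rats 1 to 4 at Nampt++ status, 22.1, 21.0, 24.0 and 31.7 at Nampt+ status, and 26.5, 16.3 and 28.9 in controls. Rat 1 at Nampt++ status was again the highest. The log2 fold change of Casp1 was -0.42 (SE 0.33), and without that sample it was -0.033. Nlrp3, the sensor that recruits it, had an FPKM of 116, 51.9, 73.1 and 62.4 in rats 1 to 4 at Nampt++ status, 48.5, 49.1, 54.7 and 88.8 at Nampt+ status, and 43.5, 71.0 and 32.6 in controls. It was lower at the later time in rats 1, 2 and 3 and higher in rat 4. The log2 fold change of Nlrp3 was -0.21 (SE 0.30), and 0.014 without Nampt++ replicate 1.

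Fitted log2 fold changes lay below 0 for 8 of the 10 genes, with a median of -0.58, while 50.03% of all tested genes lay below 0 with a median of -0.0002. The 10 values are not independent of each other, because the Nampt++ sample of rat 1 held the highest value of 6 of the 10 genes, against 17.3% of all tested genes. Il1b, Il1r2, Il1rap and Il18bp shared one pattern within rats, being lower at the later time in rats 1 and 3 and higher in rats 2 and 4. Without the Nampt++ sample of rat 1, the log2 fold changes of Il1b, Il1rap, Il18bp and Nlrp3 turned above 0.

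**Figure D2:**
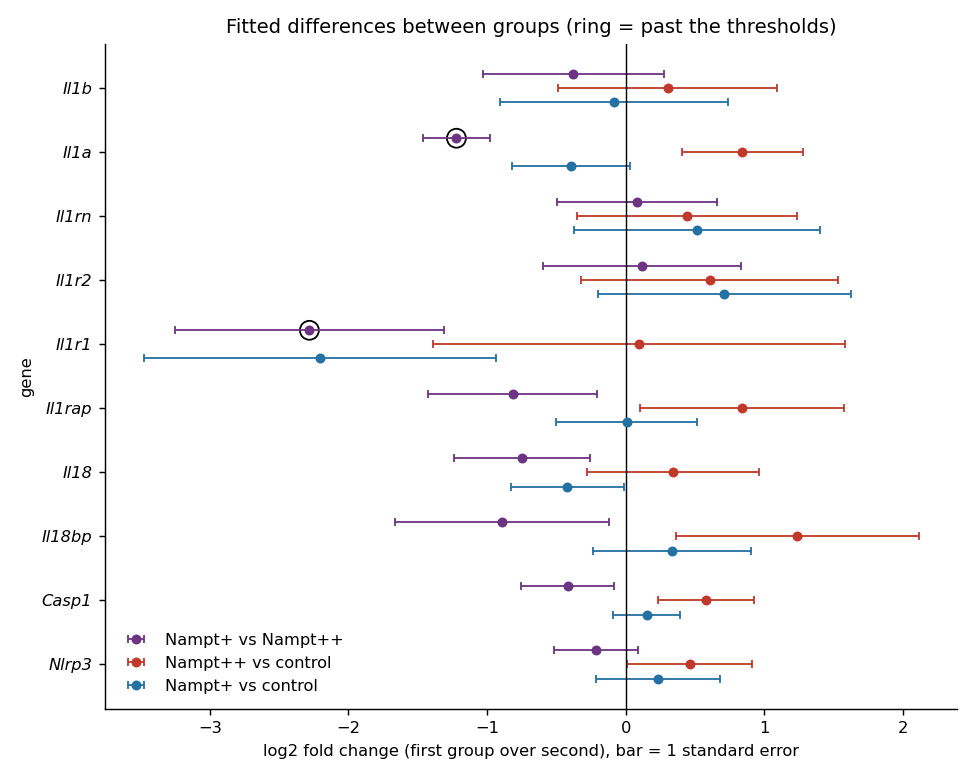
Fitted log2 fold changes (x axis, first named group over the second) of the 10 genes in the 3 comparisons, with bars of 1 standard error and rings on values past the thresholds. Rings mark only Il1a (-1.22) and Il1r1 (-2.28) between the statuses, and all 10 values of Nampt++ samples over controls lie above 0 with wide bars.

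Against controls, 0 of the 10 genes passed the thresholds at Nampt++ status with edgeR, DESeq2 or limma, where the background was 77 of 11219 genes, or 0.686%. None of them had an unadjusted p under 0.05 in edgeR either, against 1.57% of all tested genes. By limma, Il1a had an unadjusted p of 0.0192 on log2(FPKM + 1), with an adjusted p of 0.9998. On log2(FPKM + 0.1) the unadjusted limma p of Il1a was 0.0169. Its ratio of group means, 1.96, did not reach the fold threshold. The values of the Nampt++ group and the controls overlapped for each of the 10 genes, while 1.10% of all tested genes did not overlap. All 10 fitted log2 fold changes lay above 0, with a median of 0.52, against 50.33% above 0 and a median of 0.0018 over all tested genes. The largest were 1.24 (SE 0.88) for Il18bp, 0.84 (SE 0.44) for Il1a and 0.84 (SE 0.73) for Il1rap, and the smallest was 0.09 (SE 1.49) for Il1r1. By the exact permutation test of log2(FPKM + 1) the lowest p was that of Il1a, with a difference of 0.87 (p = 0.114). The lack of calls depended on control 2, which was the highest of the 3 controls for all genes but Il18 and Casp1. Without it 3 of the 10 genes passed the thresholds, namely Il1a at 1.54, Il1rn at 1.75 and Il1r1 at 3.94, while the number of called genes in the whole table went from 77 to 462. Without control 3, which held the lowest value of 4 of the 10 genes, the log2 fold changes of Il1b, Il1rn and Il1r1 turned below 0 instead, at -0.18, -0.064 and -0.46. Without control 1 that of Il1r1 was -0.45. With Nampt++ replicate 1 left out those of Il1b, Il1r1, Il1rap and Il18bp were -0.22, -0.41, -0.030 and -0.031.

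At Nampt+ status too, 0 of the 10 genes passed the thresholds against controls with edgeR, DESeq2 or limma, where the background was 56 of 11269 genes, or 0.497%. None had an unadjusted p under 0.05 in edgeR, against 0.870% of all tested genes. No gene of the 10 was without overlap, against 0.444% of all tested genes. Log2 fold changes lay above 0 for 6 genes and below 0 for 4, with a median of 0.08. Il1a stood at -0.40 (SE 0.43) and Il1b at -0.08 (SE 0.82), both within their error. Il1r1 had the lowest value at -2.21 (SE 1.27), and it passed the thresholds only without control 3 (-2.76). Without control 2 its mean FPKM was below the level needed for testing. The comparisons share their control or arthritic samples, so their values are given side by side and not as support for each other.

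Ratios within a sample do not depend on the total or on the share of haemoglobin reads. The ratio of the decoy Il1r2 to the signalling receptor Il1r1 had a median of 169 at Nampt++ status (101 to 1233), 721 at Nampt+ status (601 to 1221) and 251 in controls (79.8 to 1051). Nampt++ replicate 2 at 1233 was the sample that brought the Nampt++ group into the range of the Nampt+ group. Il1rn stood at 0.0879 to 0.259 of Il1b at Nampt++ status, at 0.152 to 0.418 at Nampt+ status and at 0.112 to 0.161 in controls. The antagonist transcript was thus below the Il1b transcript in each of the 11 samples. The FPKM of Il1b was 105 to 1186 times that of Il1a over all samples, with medians of 299 at Nampt++ status, 560 at Nampt+ status and 590 in controls. The ratio of Il18bp to Il18 had medians of 1.73, 2.75 and 3.25 at Nampt++ status, at Nampt+ status and in controls, and reached 34.1 in Nampt++ replicate 1, which combined the highest Il18bp with the lowest Il18.

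The genes of this set varied in blocks from sample to sample. Over the 11 samples, Pearson's r of log2(FPKM + 1) was 0.906 between Il1b and Il1r2 (Spearman's ρ 0.864), 0.915 between Il1rn and Il1r2 (ρ 0.700), 0.869 between Il1b and Il1rap (ρ 0.873) and 0.943 between Il1rap and Il18bp (ρ 0.873). Without the 2 samples farthest from the median of the first gene these were 0.841, 0.762, 0.840 and 0.760. Il1a stood outside this block, with an r of 0.141 with Il1b (ρ 0.0818) and of 0.0546 with Il1r2 (ρ -0.00909). Il18 gave an r of -0.311 with Il1b (ρ -0.336), which was 0.188 without the 2 farthest samples. Casp1 followed Il18bp at 0.611 over all samples but at -0.395 without Nampt++ replicate 1. These values are descriptions, since the points share 4 rats sampled on separate days and a scale set by each library's total.

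**Figure D3:**
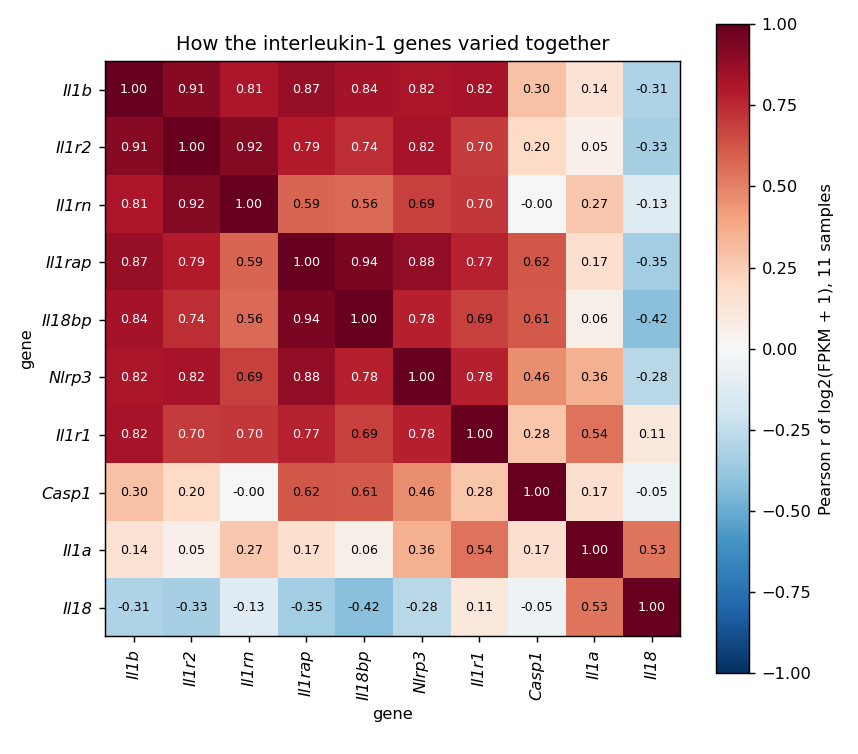
Pearson's r of log2(FPKM + 1) over the 11 samples for each pair of the 10 genes (colour scale from -1 to 1, value in each cell). Il1b, Il1r2, Il1rn, Il1rap, Il18bp, Nlrp3 and Il1r1 form a block of high values, while Il1a and Il18 stand apart from it.

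The block moved with markers of neutrophils, and also with those of monocytes. The summed FPKM of 11 neutrophil genes was 2905 to 40285 at Nampt++ status, 3697 to 15621 at Nampt+ status and 2087 to 14095 in controls, and S100a8 and S100a9 made up 92.6% to 94.8% of it. Its r over the 11 samples was 0.983 with Il1b (ρ 0.945), 0.938 with Il1r2 (ρ 0.9), 0.895 with Il1rap (ρ 0.827), 0.876 with Il18bp (ρ 0.936), 0.832 with Nlrp3 (ρ 0.691), 0.815 with Il1rn (ρ 0.745) and 0.764 with Il1r1 (ρ 0.764). With the 2 samples farthest from its median left out, the r was 0.964 for Il1b and 0.931 for Il1r2. Over the other 9 neutrophil genes, without S100a8 and S100a9, it was 0.973 for Il1b and 0.946 for Il1r2. With the sum of the monocyte genes, the r was 0.866 for Nlrp3 (ρ 0.927), 0.842 for Il1r2, 0.791 for Il1rn and 0.782 for Il1r1. It was 0.751 for Il1b, 0.691 for Il1rap and 0.505 for Il18bp. Il1rn had its strongest r, -0.882, with the sum of B cell genes. The part of the neutrophil or monocyte share in the values of these genes was not tested.

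Il1a did not follow that sum, at an r of 0.0684 (ρ -0.0727), nor did Casp1 at 0.374 (ρ -0.0273) or Il18 at -0.368 (ρ -0.500). Over all 10 marker lists, the r of Il1a ranged from -0.415 with erythroid genes to 0.405 with monocyte genes. Without the 2 samples farthest from the median of each sum, it was 0.618 with monocyte genes, 0.576 with platelet genes and -0.564 with T cell genes. Il1r1, the other gene called between the statuses, had its highest r of 0.782 with the sum of 7 monocyte genes, which ran from 5745 to 12822 FPKM at Nampt++ status, 5459 to 13812 at Nampt+ status and 4284 to 10657 in controls. The median of the monocyte sum was 10002 FPKM at Nampt++ status, 7147 at Nampt+ status and 5671 in controls, and its part in the differences of Il1a and Il1r1 was not tested. Il1b had an r of -0.761 with the sum of B cell genes and of 0.842 with that of immediate early genes, which are induced quickly when cells are activated. Ltf, a gene of late neutrophil granules, was close to 0 in every sample, with at most 0.180 FPKM.

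**Figure D4:**
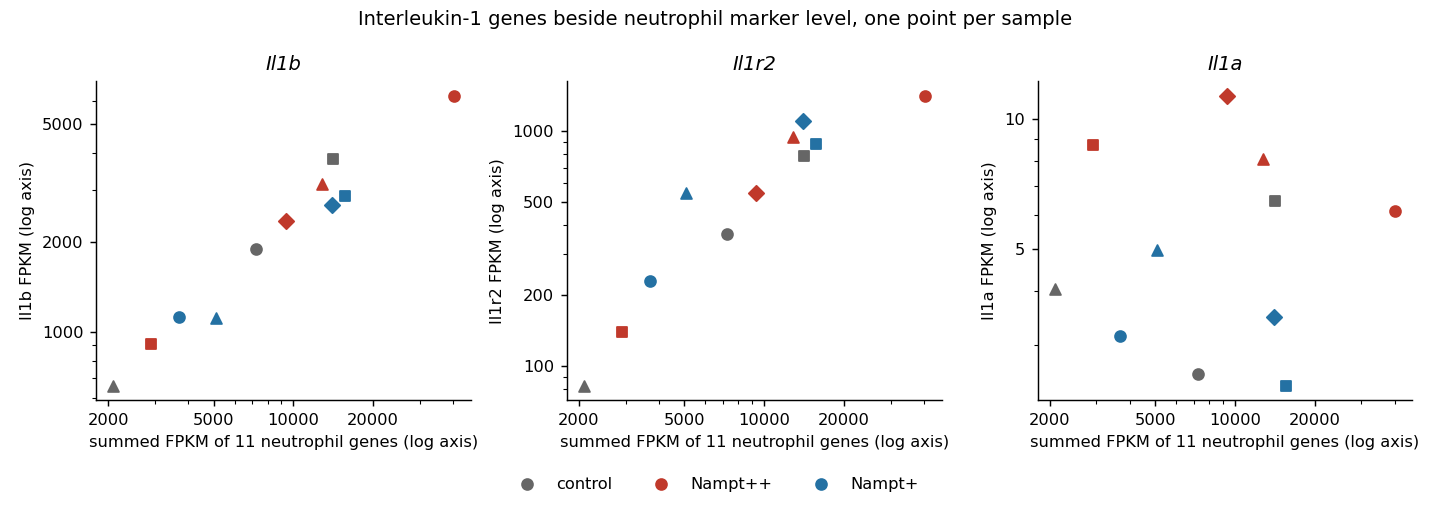
FPKM of Il1b, Il1r2 and Il1a (y axes, log) beside the summed FPKM of 11 neutrophil genes (x axis, log) with 1 point per sample, coloured by group, and symbols for animals as in the plot of FPKM by sample. Il1b and Il1r2 rise along the x axis in all 3 groups (r 0.983 and 0.938), while the Il1a points of the Nampt++ group lie above those of the Nampt+ group at any marker level (r 0.0684).

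The genes most like Il1b over the 11 samples, among the 4924 whose mean FPKM reached 10, were S100a9 (r 0.985, ρ 0.945), itself among the neutrophil markers, Pglyrp1 (r 0.985, ρ 0.982), which encodes an antibacterial granule protein, and Nfkbia (r 0.979, ρ 0.955), which encodes the NF-κB inhibitor IκBα. An r over 0.9 with Il1b was reached by 94 genes, or 1.91%. Il1r2 was most like Tnnc1 (r 0.980), Adam8 (r 0.979) and Cpne2 (r 0.978). For Il1a the nearest were Txn1 (r 0.864, ρ 0.845), Ctsl (r 0.861, ρ 0.845) and Adora2a (r 0.849, ρ 0.809), and none of the 4924 genes exceeded 0.9 with it. Casp1 was most like Ap2s1 (r 0.948), Trim8 (r 0.924) and Tbpl1 (r 0.915).

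The wider pathway was read from 48 other genes found of 49 listed: other ligands and receptors of the family, inflammasome parts, signalling proteins and IL-1 target genes. Between the statuses 41 were tested and 0 were called with edgeR, also at an unadjusted p under 0.05 alone, against 0.642% called over all genes, whereas DESeq2 and limma each called 2, Socs3 and Cebpd. Of 12 target genes, 11 had log2 fold changes below 0, with a median of -0.36 against -0.0002 over all tested genes. Nfkbia was among them at -0.43 (SE 0.60), while the chemokine gene Cxcl2 stood at 0.41 (SE 0.57). The target genes are not independent of each other, and the study had itself selected Cebpd and Nfkbiz, both on this target list, from this comparison of the same samples. Of all 41 pathway genes tested, 27 lay below 0 (median -0.11). Without Nampt++ replicate 1 it was 20 of 41 (median 0.020). Socs3, a feedback inhibitor of cytokine receptors that was singled out after its values were seen, had 314, 67.3, 258 and 448 FPKM in rats 1 to 4 at Nampt++ status, 57.2, 109.8, 110.3 and 149 FPKM at Nampt+ status and 116, 351 and 53.1 FPKM in controls. It was lower at the later time in rats 1, 3 and 4 and higher in rat 2, at a log2 fold change of -1.12 (SE 0.51). Cebpd, a transcription factor of acute inflammation singled out in the same way, had 54.2, 6.18, 28.3 and 44.5 FPKM at Nampt++ status, 6.19, 12.9, 3.98 and 14.8 FPKM at Nampt+ status and 10.5, 39.5 and 7.89 FPKM in controls. Its log2 fold change was -1.49 (SE 0.68), with the same rats going down and rat 2 going up as for Socs3 and Il1r1. The inflammasome list had a median of -0.02 over 13 genes, with Ninj1, a mediator of membrane rupture, at -0.34 (SE 0.46) and Txnip, a redox protein that binds Nlrp3, at 0.43 (SE 0.54). Among the 11 signalling genes the median was -0.0019, with the adaptor Myd88 at -0.34 (SE 0.57) and the kinase gene Irak2 at -0.0019 (SE 0.58). Il18rap and Sigirr, the most abundant of the other receptors, stood at -0.45 (SE 0.38) and -0.04 (SE 0.25).

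Of the other ligands, Il36b was the only gene that reached the level needed for testing. Il33 had a mean of 0.296 FPKM, and Il36a, Il36g and Il1f10 were at 0 in all samples. Il36b, a ligand of the IL-36 receptor that also uses Il1rap, had an FPKM of 4.49, 1.22, 3.20 and 2.63 in rats 1 to 4 at Nampt++ status, 1.73, 1.77, 1.00 and 5.53 at Nampt+ status, and 0.657, 1.52 and 1.10 in controls. Rat 2 at Nampt++ status lay within the controls and the other rats above them. Il36b was the 1 gene called with edgeR of 40 tested between Nampt++ samples and controls, against 0.686% called over all genes. It rose by a log2 fold change of 1.25 (SE 0.53), with an adjusted p of 0.9999 by the edgeR quasi-likelihood test (Benjamini-Hochberg). Beside Il36b, DESeq2 called Casp4 (1.18, SE 0.54) and limma on log2(FPKM + 1) called Mefv (1.36, SE 0.57). Both are of the inflammasome list and were named after their values were seen. The call of Il36b rests on 36 to 253 reads per sample in these 2 groups. All its values lie below the 10 FPKM under which the study regarded differences as unreliable. With a sample left out, the call held only without control 2 or without Nampt++ replicate 2, and was lost without any other. It was also lost with all groups in one fit. Between Nampt+ samples and controls 41 pathway genes were tested and 0 were called with edgeR, also at an unadjusted p under 0.05 alone, against 0.497% called over all genes, while DESeq2 called 1, the IL-33 receptor gene Il1rl1 (1.22, SE 0.61), named after its value was seen. In that comparison 11 of the 12 target genes lay below 0, with a median of -0.59, where 50.6% of all tested genes lay below 0 with a median of -0.0027. In Nampt++ samples against controls 4 of the 12 lay below 0, with a median of 0.28. The 3 comparisons share samples, and the target genes are not independent of each other. The values of the highest of them by level, for Nampt+ samples against controls, were -0.16 (SE 0.76) for Nfkbia and -0.63 (SE 0.84) for Cxcl2.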

How the data were processed

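WBC RNA of 4 CIA rats at both Nampt statuses and of 3 healthy controls was used. Poly(A) RNA had been sequenced by the authors in 2 × 150 bp reads. The deposited table gives, per gene, whole-number counts and FPKM values made by the authors, in which an FPKM of 0.0001 stands for 0 and was read as 0. The submitters' processing notes name cutadapt 1.9, HISAT2 2.0.4 and StringTie 1.3.4, and the methods add Gffcompare 0.9.8. The genome build, the counting program and its use of strand are not given in the sources used here. The labels and the methods do not describe the library kit in the same way.

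Pairs of groups were compared with edgeR 4.0.16 (quasi-likelihood test, TMM) on the counts, for genes averaging 1 FPKM or more in the samples compared. After the study's thresholds, a gene was called where the group means of FPKM differed by a ratio above 2 or below 0.5 with p under 0.05 before adjustment. Benjamini-Hochberg adjustment ran over all genes tested. The 10 genes were also compared one by one on log2(FPKM + 1) by exact permutation, and rats by exact sign flips, both two-sided. R 4.3.3, limma 3.58.1, DESeq2 1.42.0, Python 3.11.15 and scipy 1.17.1 were used, and the fits were tested on simulated counts. Alternatives were upper quartile scaling, DESeq2, no FPKM filter, limma on log2(FPKM + 1) or log2(FPKM + 0.1), leaving out the 10 haemoglobin genes, all groups in one fit, the rat as a replicate block, and leaving out each sample. The Nampt++ and Nampt+ samples of a number come from the same rat, by the labels, and their deviations from the group means correlated at -0.205, -0.197, 0.189 and 0.124 in rats 1 to 4. Replicates of a group differed beyond counting error (chi-square per degree of freedom at least 270.7).

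The 10 genes and the lists of pathway and marker genes were chosen with earlier results of these data known. The rule for the text was to name all 10 genes, the pathway genes called, the 2 highest by mean FPKM of each pathway subgroup and the 3 genes most alike to Il1a, Il1b, Il1r2 and Casp1. Socs3, Cebpd, Il1rl1, Casp4, Mefv, Il36a, Il36g, Il1f10, Bco2 and Tex12 were named after their values were seen. Nfkbiz was named because the study had selected it. Nlrp1b and some listed markers were not analysed here. The 10 marker lists covered the lymphocyte classes (T, B and NK), neutrophils and monocytes, basophils and mast cells, erythroid cells, platelets, retina and immediate early genes. Correlations used log2(FPKM + 1) and log2(sum + 1).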

Additional observations from a re-analysis of the deposited data

Results flagged for a closer look

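In 28 groups of 4 samples (the 10 genes and 4 ratios at both statuses), a sample stood apart from the other 3 by Dixon's criterion in 4. For independent groups of normally distributed values, about 1 in 20 would by chance. The criterion was applied to FPKM and ratios without logs, and the ratios reuse the values of the genes, so that rate need not hold here. The 4 samples apart were Il18bp at 46.8 FPKM and the ratio of Il18bp to Il18 at 34.1 in Nampt++ replicate 1, the ratio of Il1r2 to Il1r1 at 1233 in Nampt++ replicate 2, and Nlrp3 at 88.8 FPKM in Nampt+ replicate 4. Nampt++ replicate 1 also had the highest neutrophil marker sum (40285 FPKM) and the lowest haemoglobin share (6.43%) of all samples, and their part in its values was not tested.

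Between the times, Il1a (log2 fold change -1.22) and Il1r1 (-2.28) passed the thresholds, each with an adjusted p of 0.9996 by the edgeR quasi-likelihood test (Benjamini-Hochberg). Neither passed them against controls in the main edgeR fits. Il1a was lower in 4 of 4 rats and Il1r1 in 3 of 4. For Il1r1 the groups overlapped (exact permutation test, p = 0.143), and its call was lost in edgeR with the rat as a replicate block.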

How the results depend on the processing

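Between the statuses, the log2 fold change of Il1a stayed past the thresholds under all alternatives run. The call of Il1r1 was lost with limma on log2(FPKM + 0.1), with the 3 groups fitted together and with the replicate block in edgeR, each leaving 1 of the 10 genes called, and 1 to 2 were called with a sample left out. Over all genes, 295 were called without the FPKM filter and 129 by limma with the replicate block, in place of 72, and 58 to 165 with a sample left out. Of the pathway genes 2 were called with upper quartile scaling, DESeq2, no filter, limma at either pseudocount and limma with the replicate block, 1 without haemoglobin genes, and 0 to 3 with a sample left out. Among the 10 genes the replicate block changed no other call, while over all genes 56 were called by edgeR with it, and limma on log2(FPKM + 1) called 97 without it. Il1rn turned to -0.18 by limma at either pseudocount, to -0.23 by edgeR with the replicate block and to -0.18 by limma with it. Leaving out a sample gave -1.07 to 0.14 for Il1b, -0.66 to 0.36 for Il1rn, -0.42 to 0.56 for Il1r2, -1.11 to 0.045 for Il1rap, -1.48 to 0.37 for Il18bp, -1.05 to -0.27 for Il18, -0.62 to -0.033 for Casp1 and -0.39 to 0.014 for Nlrp3.

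For Nampt++ samples against controls, called genes in the table numbered 121 with DESeq2, 306 without the filter, 154 and 140 by limma with pseudocounts of 1 and 0.1, and 53 to 462 with a sample left out, in place of 77. Of the 10 genes, 0 to 3 were then called. Of the pathway genes, 2 were called with DESeq2, without the filter and by limma at either pseudocount, 0 with all groups in one fit, and 0 to 10 with a sample left out. Leaving out a sample gave -0.22 to 1.31 for Il1b, -0.064 to 1.75 for Il1rn, -0.46 to 3.94 for Il1r1, -0.030 to 1.38 for Il1rap, -0.15 to 0.76 for Il18 and -0.031 to 1.78 for Il18bp.

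For Nampt+ samples against controls, called genes numbered 261 without the filter, 85 by limma on log2(FPKM + 1) and 49 to 136 with a sample left out, in place of 56. Of the 10 genes, 0 to 1 were then called, and of the pathway genes 1 with DESeq2 and 0 to 2 with a sample left out. Il1b turned to 0.063 by limma at either pseudocount. Leaving out a sample gave -0.69 to 0.31 for Il1a, -0.79 to 0.93 for Il1b, -0.24 to 1.83 for Il1rn, -0.36 to 0.56 for Il1rap, -0.26 to 0.88 for Il18bp, -0.055 to 0.25 for Casp1 and -0.10 to 0.86 for Nlrp3. Without control 2, Il1r1 was below the filter and gave no value. The causes of these shifts were not tested, beyond the loss of a sample in each such fit and the larger number of genes tested without the filter. With 3 or 4 rats per group, the number of rats limits the comparisons. The lowest counts were 38 reads for Il1r1 and 108 for Il18, and for these genes counting error was not separated from the spread between rats.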
